A study of Mus musculus with 12 samples.

Results

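The 4 genes Nrn1, Nrgn, Ifitm2, and Phf11b were chosen for strong falls of their mRNA from activated to polarized CD4+ T cells in 2 deposited RNA-seq tables, of which one sets Th17 and the other iTreg cells against Th0 cells. All 4 genes had a row in both tables, which list 11077 and 11056 genes, 10886 of them shared. They were selected on their differences from Th0 in FPKM, and these differences are therefore given as a description, without a test. The question that the tables address is how mRNA levels change when activated cells are driven toward the Th17 or the iTreg fate.

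The 12 libraries were 4 each of Th0, Th17, and iTreg cells. Naive CD4+CD62L+ T cells from the spleens of C57BL/6 mice aged 8 to 10 weeks were activated in every group with 1 µg/ml plate-bound anti-CD3 and 1 µg/ml anti-CD28 and collected after 3 days. Th0 cells received nothing further. Th17 cultures also held IL6 (30 ng/ml), TGFβ1 (5 ng/ml), and antibodies that neutralize IL4 and IFNγ (10 µg/ml each), and iTreg cultures held IL2 (10 ng/ml) and TGFβ1 (10 ng/ml by the labels, a higher dose by the methods of the study) without those antibodies. The same Th0 libraries stand in both tables, so the Th17 and iTreg comparisons share their controls. Libraries are named by the headings of their columns, which end in _1 for Th0, _5 for Th17, and _4 for iTreg cells and begin with M22, M29, M42, or M43, each once in every group. The labels do not say whether animals were pooled for a culture.

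Nrn1 encodes neuritin, a small protein anchored to the cell surface that was first described in neurons, where it promotes the growth of neurites, and that is also known from anergic and regulatory T cells. Nrgn encodes neurogranin, which binds calmodulin when calcium is low and is known from neurons and platelets. Ifitm2 belongs to the interferon-induced transmembrane proteins, which restrict the entry of viruses into cells. Phf11b is one of a cluster of mouse Phf11 genes with a PHD zinc finger. T cell receptor signalling acts through calcium, calmodulin, and calcineurin, and interferons act through STAT proteins and interferon-regulated promoter elements, so the genes were set beside lists of anergy, calmodulin, and interferon-induced genes.

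All 4 genes lie on the minus strand of GRCm38 (the build called mm10) and are protein-coding in the GENCODE annotation. Nrn1 lies at chr13:36725361-36735131 and Nrgn at chr9:37544492-37552904. Ifitm2 lies at chr7:140954837-140955987 and Phf11b at chr14:59320964-59341351. Reads were counted by the authors without regard to strand. Of the exonic bases of Nrn1, 22.3% also lie in exons of Fars2, a mitochondrial tRNA synthetase gene, which was at 7.94 FPKM in Th0 and 8.71 FPKM in Th17 cells. Of those of Ifitm2, 40.9% also lie in exons of Gm45717. For Ifitm2, 34.9% of the stretches of 100 bases in its transcripts recur in other annotated genes, and for Phf11b 13.8% recur in Phf11a, Phf11c, Phf11d, or Gm6904. The levels of Nrn1, Ifitm2, and Phf11b are to that extent uncertain. Nrgn shared neither exonic bases nor such stretches.

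The bases before the annotated start are shown for 3 of the genes because Ifitm2 and Phf11b hold in this stretch a motif that few promoters hold, and Nrgn, for comparison, does not. The sequences come from RefSeq (GRCm38.p6), read 5′ to 3′ on the strand of the gene, and end at the base before the RefSeq start. For all 3 genes this start lies inside the GENCODE span given above. Part of each stretch therefore lies within that span, and for Nrgn most of it does. Capitals mark the matches to the motifs that were searched.
Nrgn, chr9:37552746-37552995: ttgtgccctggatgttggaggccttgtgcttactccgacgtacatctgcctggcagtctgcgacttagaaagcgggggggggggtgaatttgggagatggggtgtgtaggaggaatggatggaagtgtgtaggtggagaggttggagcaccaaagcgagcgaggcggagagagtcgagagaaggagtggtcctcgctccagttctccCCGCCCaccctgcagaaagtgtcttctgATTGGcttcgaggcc
Ifitm2, chr7:140955962-140956211: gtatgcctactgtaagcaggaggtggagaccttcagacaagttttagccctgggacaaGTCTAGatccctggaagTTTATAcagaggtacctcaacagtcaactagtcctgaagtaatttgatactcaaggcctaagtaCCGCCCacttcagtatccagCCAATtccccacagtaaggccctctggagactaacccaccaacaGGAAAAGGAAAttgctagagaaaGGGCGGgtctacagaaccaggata
Phf11b, chr14:59341331-59341580: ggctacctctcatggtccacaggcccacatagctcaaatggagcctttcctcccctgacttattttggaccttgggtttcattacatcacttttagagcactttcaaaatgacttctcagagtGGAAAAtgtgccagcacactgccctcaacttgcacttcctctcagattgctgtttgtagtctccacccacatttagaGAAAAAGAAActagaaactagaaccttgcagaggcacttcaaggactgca

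The motif is the interferon-stimulated response element (ISRE), searched on both strands as GAAA, any 2 bases, and GAAA again. Ifitm2 matched it with GAAAAGGAAA from base -46 to -37 relative to the RefSeq start, where the match overlaps one to the NFAT core (GGAAAA). Phf11b matched it with GAAAAAGAAA from base -50 to -41. The ISRE letters stood in 3.44% of the 32851 mouse promoters of the same 300-base length. The NFAT core stood in 23.4% of them and was matched by both genes. Nrgn held neither, and its matches were a CCAAT box (CCAAT) and a GC box (GGGCGG), which stood in 37.4% and 35.7% of promoters. Ifitm2 also matched the CCAAT and GC boxes, the TATA box letters (TATAAA, in 13.6% of promoters), and the SMAD letters GTCTAG (8.37%). The TATA match was on the opposite strand, from base -175 to -170. None of the 3 genes matched AP-1 (TGANTCA), GAS (TTCNNNGAA), or RUNX (TGTGGT), which says only that these letters were not in the window. The promoter of Phf11a matched that of Phf11b at 98.2% of 279 aligned bases, ISRE included. Of 13 other genes with a log2 fall beyond 2 in both tables and a promoter in the reference, 2 (Dhrs3 and Stat4) held the ISRE letters. Of 25 listed interferon-induced genes with a promoter in the reference, 13 (52.0%) held them. Among these, Stat2 and Bst2 rose in Th17 cells, and Ifit1, Gbp7, and Trim30a fell.

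The values are FPKM, fragments scaled to exon length and library size, so genes can be compared per length within a table. The tables were scaled separately, and unless stated otherwise Th0 values are those of the Th17 table. FPKM lie on steps of whole reads, from which the reads were recovered for 99.89% of the genes shared by the tables. The recovered reads summed to between 6860151 and 10092673 per library, and reads per 1000000 of this sum are given as RPM. For the whole tables, limma was run on log2(FPKM + 1) for genes above 1 FPKM in at least 4 of the 8 libraries, with a false discovery rate (FDR) of 0.05 by Benjamini-Hochberg adjustment. Of 10269 genes tested, 19.3% differed between Th17 and Th0 cells, and of 10208, 16.6% differed between iTreg and Th0 cells. Those called lower made up 8.69% and 8.21%. Libraries with the same beginning of the heading deviated together from the means of their groups (Pearson r across genes 0.45 to 0.78), and with this beginning as a replicate block 37.8% and 40.9% of the genes were DE (differentially expressed) in Th17 and iTreg cells. Calls are those without the block unless stated, and none of those on named genes was lost with it. Every Th17 library was below every Th0 library for 10.6% of the genes, and every iTreg library was below them for 11.0%. All 4 chosen genes were of this kind in both tables, as the choice of genes entails.

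T cell markers were present in all libraries, with summed FPKM of 6 listed markers between 828 and 1854. Of these, Cd4 was lower in Th17 cells, at 68.1 FPKM (33.8 to 87.4) against 208 (81.3 to 283) in Th0 cells (log2 fold change -1.54, adjusted p = 0.038 from limma), but the adjusted p reached 0.10 when a library was left out. Of the 9 platelet markers, only Itga2b was listed, at 0.283 to 1.37 FPKM in Th0 and 0.465 to 1.498 FPKM in Th17 cells, and Pf4 and Ppbp were not among the genes analysed here. Of the B cell markers only Cd79a was listed, at up to 3.84 FPKM, and no NK or erythroid marker was. The CD8 T cell marker Cd8b1 was at 2.52 to 6.60 FPKM in Th0 and 3.22 to 5.89 FPKM in Th17 cells. Zbtb46, a dendritic cell marker, had means of 0.848 FPKM in Th0, 0.0397 in Th17, and 0.511 in iTreg cells. Itgam, a macrophage marker, was listed in the Th17 table only, at up to 0.628 FPKM. Il17f was at 281 FPKM or more in every Th17 library, and Foxp3 at 62.0 FPKM or more in every iTreg library. The Th17 library M43_5 stood apart with Foxp3 at 42.5 FPKM, where the other Th17 libraries had 0.499 to 4.50. Without it, the log2 fold changes of the 4 genes were -5.80 for Nrn1, -4.82 for Nrgn, -4.90 for Ifitm2, and -3.33 for Phf11b.

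**Figure D1:**
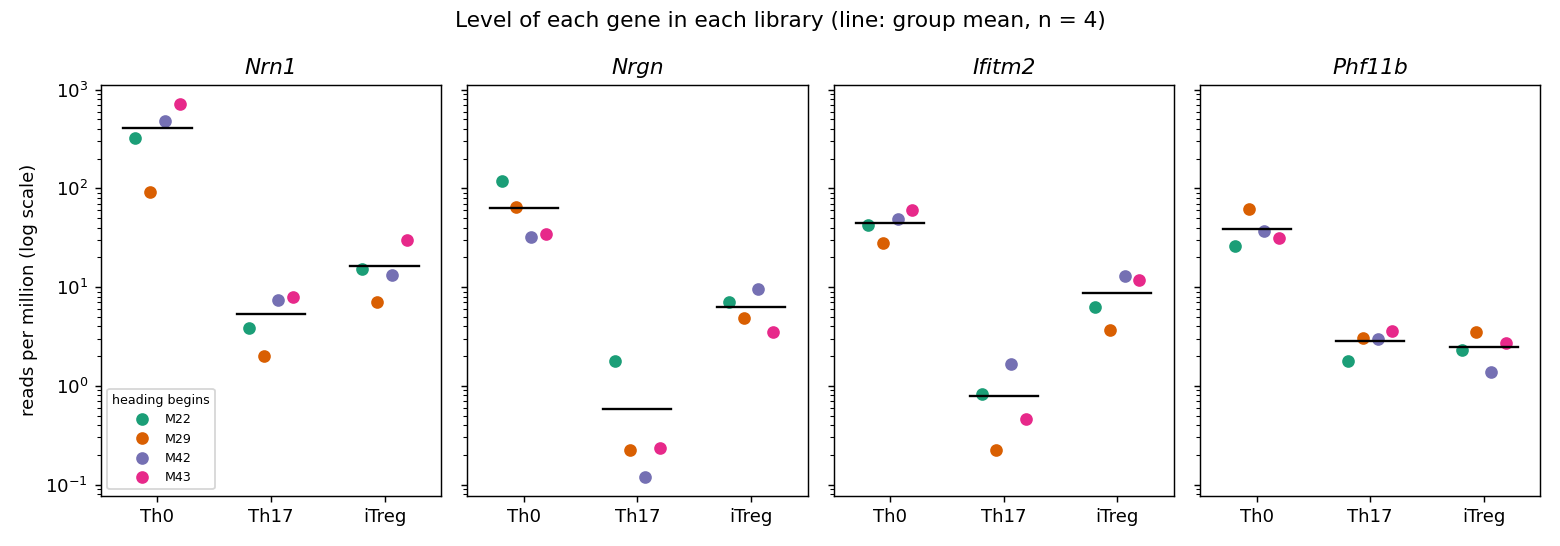
Recovered reads scaled to the library total (RPM, log axis) of each gene in each of the 12 libraries, by group, coloured by the beginning of the column heading, with a line at the group mean (n = 4). Th0 libraries lie above all others for every gene, and Th17 libraries lie below iTreg libraries for Nrgn and Ifitm2 only.

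Nrn1 had the highest mean level of the genes in Th0 cells and, on the log2(FPKM + 1) scale, the largest difference from them. It was at 184, 52.3, 277, and 422 FPKM in the Th0 libraries M22_1, M29_1, M42_1, and M43_1, with a mean of 234 ± 156 FPKM (SD, n = 4), higher than 98.0% of listed genes. In the Th17 libraries M22_5, M29_5, M42_5, and M43_5 it was at 2.12, 1.15, 4.36, and 4.73 FPKM. The highest Th17 library was 11.1 times below the lowest Th0 library. The 4 Th17 libraries hold 177 reads of Nrn1 (95% Poisson interval 152 to 205, for counting error only), against 13442 in Th0 cells. In the iTreg libraries M22_4, M29_4, M42_4, and M43_4 it was at 8.70, 3.99, 7.87, and 18.2 FPKM, and the highest of them was 2.85 times below the lowest Th0 value in the iTreg table. The means of Th17 and iTreg cells were 1.32% and 4.19% of the Th0 mean. The log2 fold change was -5.61 (SE 0.73) in Th17 and -4.26 (SE 0.76) in iTreg cells, the strongest fall of all tested genes in each table on this scale. As a share of the Th0 mean, Nrgn fell further in Th17 cells, and with a pseudocount of 0.1 FPKM the log2 fold changes there were -6.04 for Nrn1 and -6.74 for Nrgn. In RNA from whole cultures, fewer cells that express a gene and less RNA per cell cannot be told apart.

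Nrgn, the calmodulin-binding protein, was at 84.9, 46.1, 23.1, and 25.3 FPKM in the Th0 libraries, listed in the same order as above, with a mean of 44.8 ± 28.6 FPKM (SD, n = 4). In Th17 cells it was close to the limit of detection, at 1.23, 0.161, 0.0882, and 0.172 FPKM. These values rest on 13, 2, 1, and 2 reads, and the total of 18 reads has a 95% Poisson interval of 10.7 to 28.4. The library M22_5 thus holds most of the Nrgn reads of Th17 cells. M22_1 also had the highest Nrgn level among Th0 libraries. In iTreg cells Nrgn was at 5.10, 3.44, 7.04, and 2.68 FPKM. The means were 0.921% of Th0 in Th17 and 10.3% in iTreg cells, with log2 fold changes of -4.89 (SE 0.49) and -2.90 (SE 0.49). Because so few reads remained in Th17 cells, the former depends on the pseudocount.

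Ifitm2, the interferon-induced transmembrane gene, had the smallest spread between Th0 libraries relative to its mean, at 62.2, 41.0, 72.2, and 90.5 FPKM and a mean of 66.5 ± 20.6 FPKM (SD, n = 4). In Th17 cells it was at 1.17, 0.331, 2.55, and 0.709 FPKM, from 6, 2, 14, and 4 reads (26 in total, 95% Poisson interval 17.0 to 38.1). As for Nrgn, few reads were left in Th17 cells. In iTreg cells its mean kept a larger share of the Th0 mean than those of the other genes, at 9.20, 5.33, 19.6, and 18.5 FPKM. The means were 1.79% and 20.04% of Th0, with log2 fold changes of -4.99 (SE 0.38) and -2.34 (SE 0.47). The highest iTreg library was 2.07 times below the lowest Th0 library, against 16.1 times for the highest Th17 library.

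Phf11b, the PHD finger gene, was at 20.3, 48.9, 29.6, and 25.7 FPKM in Th0 cells, with a mean of 31.1 ± 12.5 FPKM (SD, n = 4). It was at 1.37, 2.41, 2.45, and 2.96 FPKM in Th17 cells. In iTreg cells it was at 1.81, 2.78, 1.14, and 2.31 FPKM. Phf11b was reduced to about the same level in both kinds of polarized cells, 7.38% of Th0 in Th17 and 6.53% in iTreg cells. The log2 fold changes were -3.24 (SE 0.30) and -3.36 (SE 0.31). Th0 libraries were at least 6.86 times above every Th17 library and 7.21 times above every iTreg library.

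**Figure D2:**
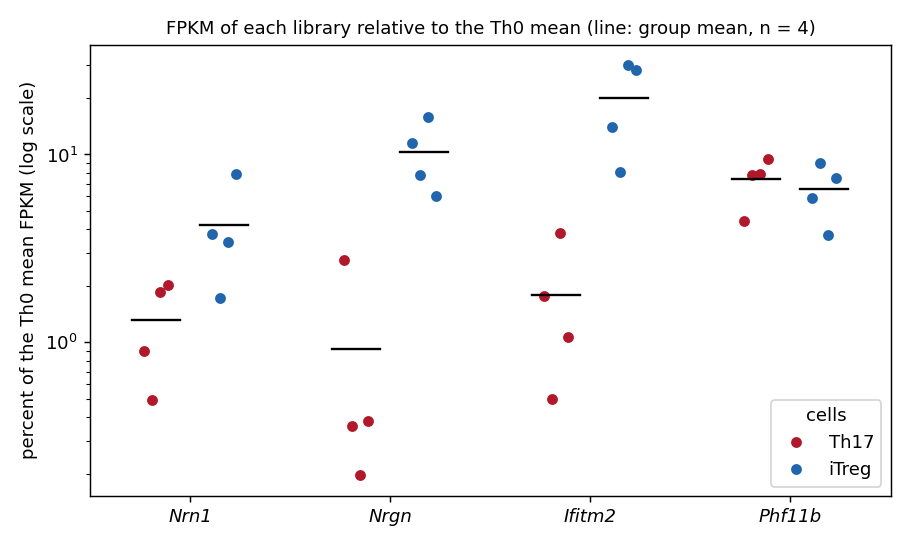
FPKM of each Th17 (red) and iTreg (blue) library as a percentage of the mean of the 4 Th0 libraries in the same table (log axis), with a line at the group mean (n = 4). Group means range from 0.921% for Nrgn in Th17 cells to 20.04% for Ifitm2 in iTreg cells, and those of Phf11b are 7.38% and 6.53%.

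The order of the genes by FPKM differed between the groups. In Th0 cells the order of the means was Nrn1, Ifitm2, Nrgn, and Phf11b, and each neighbouring pair overlapped between libraries. In Th17 cells it was Nrn1 (3.09 FPKM), Phf11b (2.30), Ifitm2 (1.19), and Nrgn (0.413), again with overlap between neighbours. In iTreg cells Ifitm2 came first (13.2 FPKM), followed by Nrn1 (9.69), Nrgn (4.56), and Phf11b (2.01), and neighbours overlapped here too. Phf11b thus had the lowest mean of the genes in Th0 and iTreg cells but not in Th17 cells. In Th0 cells this rested on the library M22_1, with Phf11b at 20.3 and Nrgn at 84.9 FPKM. In M29_1, M42_1, and M43_1 Phf11b was above Nrgn. In every iTreg library Phf11b was the lowest of the genes.

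To set Th17 beside iTreg cells, recovered reads were scaled to the total of each of the 12 libraries (RPM). Every Th17 library was below every iTreg library for 8.71% of 10067 genes. Ifitm2 was at 0.793 ± 0.632 RPM in Th17 and 8.63 ± 4.41 in iTreg cells (SD, n = 4), 10.9 times higher in iTreg cells, and the groups did not overlap (0.224 to 1.67 against 3.64 to 12.8). Nrgn was at 0.586 ± 0.790 and 6.24 ± 2.61 RPM (SD, n = 4), 10.7 times higher in iTreg cells, also without overlap. Without the Th17 library M42_5 the ratio of Ifitm2 was 17.2, and without M22_5 that of Nrgn was 32.5. For Nrn1 the iTreg mean was 3.09 times the Th17 mean, but the ranges met (2.02 to 8.02 against 7.06 to 30.0 RPM). The iTreg level of Phf11b was 0.872 times that of Th17 cells, with overlap, and the difference on the log2 scale (Th17 minus iTreg) was 0.19 with an SE of 0.30. Between libraries with the same beginning of the heading, iTreg was above Th17 in 4 of 4 pairs for Nrn1 (1.796 to 4.01 times), Nrgn (4.03 to 79.4 times), and Ifitm2 (7.65 to 25.4 times). For Phf11b it was above in 2 of 4 pairs (0.465 to 1.29 times). These comparisons are descriptions, since the genes were chosen for falls in both groups.

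**Figure D3:**
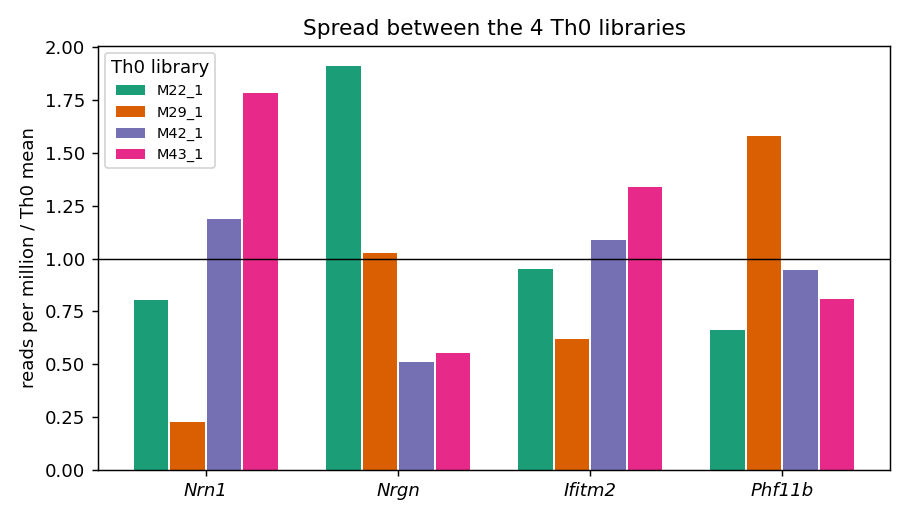
RPM of each gene in the 4 Th0 libraries, divided by the Th0 mean of the gene (bars, linear axis from 0, with a line at the mean). Nrn1 and Ifitm2 are lowest in M29_1 and highest in M43_1, whereas Phf11b is highest in M29_1 and Nrgn is highest in M22_1.

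The Th0 libraries themselves differed most for Nrn1, with 8.07 times between the lowest and the highest, followed by Nrgn (3.68 times), Phf11b (2.41 times), and Ifitm2 (2.21 times). Nrn1 and Ifitm2 ranked the Th0 libraries in the same order. Phf11b was highest in M29_1, the library in which both of these were lowest. Across the 8 libraries of a table, the deviations from the group means of Nrn1 and Ifitm2 had a Pearson r of 0.76 in the Th17 and 0.77 in the iTreg table. The tables share their 4 Th0 libraries, so these values are not independent. The other 5 pairs of the genes had negative r, from -0.61 to -0.12. Nrn1 and Ifitm2 thus varied together between libraries of a group, but this was not particular to the pair. Ranked by the smaller r of the deviations in the 2 tables, Ifitm2 was at place 851 among the genes most like Nrn1.

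Ranked by the smaller of the falls in the 2 tables, Nrn1 was the 1st and Phf11b the 2nd of 10079 genes tested in both, Nrgn the 4th, and Ifitm2 the 13th. High places follow from the choice of these genes for strong falls. In all, 157 of the 10079 genes had a log2 fold change below -1 in both tables, 19 below -2, and 3 below -3. The 8 other genes with the strongest falls were Pyhin1, Il2, Slamf6, BC094916, Gzmb, Dhrs3, Zfp467, and Zan. Pyhin1, a gene of the interferon-inducible HIN-200 family, went from 29.3 ± 20.4 FPKM in Th0 to 2.17 ± 1.22 in Th17 cells (SD, n = 4). Il2, the T cell growth factor, went from 38.1 ± 15.6 to 4.05 ± 1.18 FPKM (SD, n = 4), and in the iTreg table to 2.43 ± 1.21 FPKM. Slamf6, a receptor of the SLAM family, went from 79.3 ± 23.5 to 10.0 ± 3.19 FPKM (SD, n = 4), and Gzmb, a cytotoxic granule protease, from 9.27 ± 6.16 to 0.0634 ± 0.0824 FPKM. Just after Ifitm2 came Slco4a1, with log2 fold changes of -2.53 and -2.25, and Btla, an inhibitory receptor, with -3.25 and -2.17. The order gives less weight to genes of low FPKM. With a pseudocount of 0.1 FPKM Zan came 1st, Nrn1 2nd, Phf11b 6th, Nrgn 11th, and Ifitm2 24th.

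**Figure D4:**
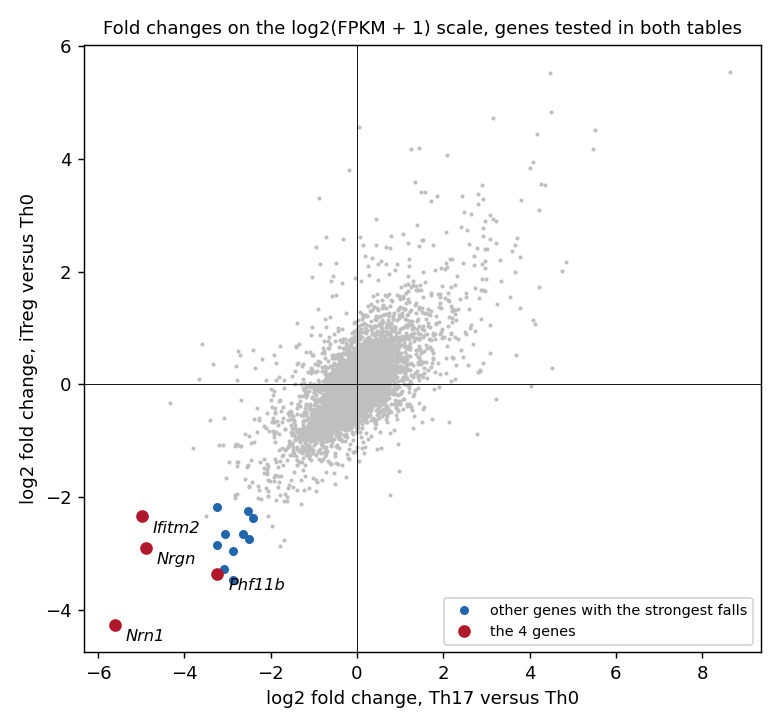
Log2 fold change on the log2(FPKM + 1) scale in Th17 versus Th0 (x axis) against iTreg versus Th0 (y axis) for the 10079 genes tested in both tables (grey), with the 4 chosen genes in red and 10 other genes with strong falls in blue. Nrn1 lies at the lower left end (-5.61 and -4.26), Ifitm2 and Nrgn fell more in Th17 cells, and Phf11b lies among the other genes. The comparisons share their Th0 libraries.

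The genes whose pattern was most like each of the 4 were taken by the smaller of the Pearson r of log2(FPKM + 1) over the 8 libraries of each table, in which the difference between groups carries most of the likeness. For Nrn1 they were Dnmt3a (a DNA methyltransferase, r = 0.99), Gpr34 (a lysophospholipid receptor, 0.99), and Mbp (0.98). For Nrgn they were Decr1 (a mitochondrial enzyme of fatty acid oxidation, 0.99), Erf (0.97), and Parp8 (0.97). For Ifitm2 they were Rilpl2 (0.99), Rhbdl3 (0.98), and Cst7 (an inhibitor of cathepsins, 0.98), and for Phf11b Ipcef1 (0.98), Tacc2 (0.98), and Atxn1 (0.98). Rilpl2 followed Ifitm2 in all groups, at 171 ± 36.1 FPKM in Th0, 20.01 ± 3.80 in Th17, and 53.7 ± 17.3 in iTreg cells (SD, n = 4). Their falls were smaller than those of the genes they resemble, which the choice of the 4 genes for strong falls makes likely. The measure r compares the pattern and not its size. These names depend on the measure. Of the 3 genes, Spearman rho kept 1 for Ifitm2 and none for the others.

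The relatives of the 4 genes could be examined only in part. Phf11c, which lies 54.0 kb from the start of Phf11b and shares sequence with it, was at 2.85, 4.41, 2.04, and 2.42 FPKM in Th0 and 4.39, 3.26, 3.51, and 2.65 FPKM in Th17 cells. Its groups overlapped, and it was not DE (log2 fold change 0.20, adjusted p = 0.52 from limma), nor was it in iTreg cells (0.15, adjusted p = 0.71). The other 6 Ifitm genes and Phf11a and Phf11d were not among the genes analysed here. Insr, which has been described as a partner of neuritin, was at 3.71 FPKM in Th0 and 3.47 in Th17 cells and was not DE in either table (adjusted p = 0.85 and 0.50 from limma). With the replicate block it was DE in iTreg cells (log2 fold change -0.27, adjusted p = 0.019 from limma).

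The genes that start within 200 kb of the 4 genes gave no common direction. No other protein-coding gene starts within this distance of Nrn1. Of 12 around Nrgn, 3 were tested and none was DE in either table by limma (adjusted p from 0.060 to 0.98), but with the replicate block Tbrg1 was up-regulated in iTreg cells (log2 fold change 0.43, adjusted p = 0.0054). Siae starts 2.79 kb from Nrgn and was at 3.99 ± 1.82 FPKM in Th0 and 4.91 ± 2.55 FPKM in Th17 cells (SD, n = 4). Of 25 around Ifitm2, 9 were tested, and in Th17 cells 3 were up-regulated and none down-regulated, whereas in iTreg cells 1 was up-regulated and 3 were down-regulated. Over all tested genes 10.6% were up-regulated and 8.69% down-regulated in Th17 cells, and 8.36% and 8.21% in iTreg cells. With the replicate block Ptdss2 was also up-regulated in both. B4galnt4, which starts 105 kb away, was up-regulated in Th17 cells (1.55 to 16.4 FPKM, log2 fold change 2.79, adjusted p = 1.4e-05 from limma) and down-regulated in iTreg cells (-0.89, adjusted p = 0.010). Around Phf11b, 4 of 9 were tested, and Rcbtb1 alone was DE, down-regulated in Th17 cells (41.5 to 30.2 FPKM, adjusted p = 0.029 from limma).

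Of 16 T cell anergy genes known together with Nrn1, 15 were tested, and 5 fell and 2 rose in Th17 cells, each also when any 1 library was left out. The median log2 fold change of the 15 was -0.26, against -0.00071 over all tested genes, of which 8.69% were called down-regulated and 10.6% up-regulated. The 5 that fell were Egr3, Folr4, Nrp1, Tnfrsf18, and Dgkz. Egr3, a transcription factor induced by T cell receptor signals, went from 63.5 FPKM (range 52.5 to 80.5) to 14.5 (11.05 to 17.9), with a log2 fold change of -2.06 (SE 0.19, adjusted p = 1.0e-04 from limma). Folr4, the folate receptor family member also called Izumo1r, went from 183 to 26.6 FPKM (-2.78, adjusted p = 2.1e-04 from limma). Nt5e, the surface enzyme that forms adenosine, rose from 19.9 to 159 FPKM (2.92, adjusted p = 1.1e-04 from limma), and Ctla4, an inhibitory receptor, from 38.8 to 133 FPKM (1.77, adjusted p = 3.5e-04). The list thus held DE genes of both directions.

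In iTreg cells 6 of the 15 anergy genes fell and 1, Nt5e, rose, with a median log2 fold change of -0.47 against 0.01 over all tested genes (8.21% down-regulated and 8.36% up-regulated). Egr3 (-1.45), Cblb (-1.12), Folr4 (-1.38), and Nt5e (3.28) passed the test without any 1 library. Dgka, Dgkz, and Nfatc1 did not, and without the library M22_1 or M22_4 none of these 3 passed. With the replicate block, 12 of the 15 were DE in iTreg cells, 3 up-regulated and 9 down-regulated (20.9% and 20.0% over all tested genes), with Dgka, Dgkz, and Nfatc1 among them. Egr2, which is known to act with Egr3 in anergy, was at 67.6 FPKM in Th0 and 61.5 in Th17 cells and was not DE in either table without the block (adjusted p = 0.62 and 0.17 from limma), but with it fell in iTreg cells (log2 fold change -0.36, adjusted p = 0.011).

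Of 22 genes for calmodulin, its small binding proteins, its kinases, and calcineurin, set beside Nrgn, 16 were tested in each table. In Th17 cells Ppp3ca, a catalytic subunit of calcineurin, fell (11.8 to 4.36 FPKM, log2 fold change -1.27, adjusted p = 0.0084 from limma) and Camkk1 rose (0.948 to 4.07 FPKM, 1.38, adjusted p = 5.6e-04). The other 14 were not DE, and the median was 0.08. These 2 of 16 compare with 19.3% of all tested genes, and with the replicate block 6 of 16 were DE against 37.8%. The calmodulin gene Calm2 was at 174 FPKM in Th0 and 190 FPKM in Th17 cells. In iTreg cells 5 rose and 1 fell, against 8.36% and 8.21% of all tested genes. Of these 6, Gap43, Camk4, and Camk2d were called without any 1 library. Gap43, like neurogranin an IQ protein that binds calmodulin, rose in iTreg cells, from 0.112 FPKM (range 0 to 0.203) to 6.82 FPKM (1.79 to 12.02). Its log2 fold change was 2.62 (SE 0.47, adjusted p = 0.0028 from limma). Gap43 passed the filter of 1 FPKM only through the iTreg libraries, where it was high, so its call is not independent of the filter. It was not among the genes analysed in Th17 cells. Camk4 rose from 5.63 to 11.2 FPKM and Camk2d fell from 24.7 to 11.98 FPKM. Without the library M22_1, M22_4, or M43_1, 3 of the list were DE in iTreg cells.

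Interferon-induced genes moved in both directions. Of 32 listed for this comparison, 25 were tested in Th17 cells, where 8 rose and 8 fell, against 10.6% and 8.69% of all tested genes, and the median log2 fold change was -0.01. Of the 16 calls, 10 held without any 1 library. Among these, Ly6a, a surface protein of activated T cells, rose from 5.43 to 106 FPKM (log2 fold change 4.04, adjusted p = 4.9e-05 from limma), and Irf9 (0.87) and Ifi47 (0.82) also rose. Gbp4, an interferon-induced GTPase, fell from 20.2 to 5.08 FPKM (-1.83, adjusted p = 3.1e-04 from limma). Isg20 (-1.60), Gbp7 (-1.47), Psmb8 (-1.23), Ifit1 (-1.22), and Psmb9 (-0.87) also fell. Isg20 and Ifit1 were at most 0.527 and 0.758 FPKM in Th17 libraries. They passed the filter only through Th0 libraries, so their calls are not independent of it. The falls of Ifitm2 (-4.99) and Phf11b (-3.24) were larger, which follows from the choice of these 2 genes for strong falls. Without the library M22_5, 10 of the 25 were DE.

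In iTreg cells 4 of 23 tested interferon-induced genes rose and 4 fell, against 8.36% and 8.21% of all tested genes, with a median of -0.04. With the replicate block 7 rose and 7 fell, against 20.9% and 20.0% of all tested genes, and Gbp4 was among those that fell (log2 fold change -1.81, adjusted p = 0.016 from limma). Among the calls that held without any 1 library, Ifi47 (1.47) and Irgm1 (1.37) rose and Trim30a (-0.75) fell. The iTreg library M29_4 stood apart in this list, with Gbp4 at 24.4 FPKM where the other iTreg libraries had 1.49 to 4.58, and with a summed FPKM of the list of 1224 against 626 to 872. In the same library Phf11b was the highest (2.78 FPKM) and Ifitm2 the lowest (5.33 FPKM) of the iTreg group. Without M29_4, 11 of the 23 genes were DE, Gbp4 among them (adjusted p = 8.6e-04 from limma). Without the library M22_1 or M43_1, 5 were DE. Without M29_4 the log2 fold changes of Ifitm2 and Phf11b in iTreg cells were -2.003 and -3.48.

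**Figure D5:**
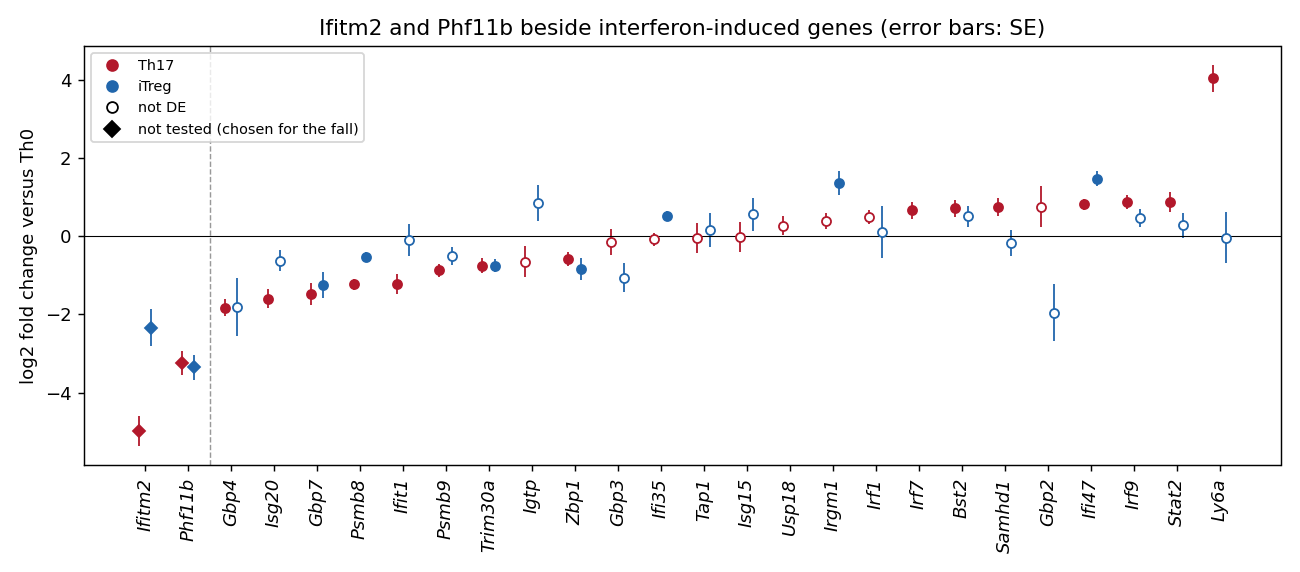
Log2 fold change versus Th0 on the log2(FPKM + 1) scale (y axis, error bars are SE) of Ifitm2 and Phf11b (diamonds, not tested) and of interferon-induced genes that were tested and are reported here (circles, open where not DE without the replicate block) in Th17 (red) and iTreg (blue) cells. Both genes lie below every list gene shown, which follows from their choice for strong falls. The list genes spread to both sides of 0.

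Of 13 Th1 and Th2 genes, 8 were tested in Th17 cells, and Nkg7, Ccl5, and Gata3 fell and Il10 and Cxcr3 rose. These 5 of 8 compare with 19.3% of all tested genes. Cxcr3 was not called without M22_1, M29_1, M29_5, or M42_1 (adjusted p 0.053 to 0.080 from limma). Nkg7, a cytotoxic granule gene, went from 31.8 FPKM (6.58 to 58.8) to 1.37 FPKM (0.301 to 3.28) in Th17 cells (log2 fold change -3.58, adjusted p = 0.0041 from limma), but in iTreg cells it was at 42.1 FPKM (25.1 to 53.5) and not DE (adjusted p = 0.47). Gata3, the Th2 factor, went from 12.2 to 2.40 FPKM in Th17 cells (-1.96, adjusted p = 2.5e-04 from limma). In iTreg cells only Ccl5 of 6 tested was DE, against 16.6% of all tested genes, and without M22_4 it was not (adjusted p = 0.055 from limma). With the replicate block 4 of the 6 were DE in iTreg cells, against 40.9% of all tested genes. Of these, Cxcr3 (log2 fold change 1.34) and Ccr4 (1.02) rose and Ccl5 (-1.06) and Gata3 (-0.41) fell.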

How the data were processed

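The 12 RNA-seq libraries (4 each of Th0, Th17, and iTreg cells) were grouped by the labels. The authors aligned paired reads of 100 nt with TopHat 2.0.14 to mm10, assigned them to exons with HTSeq-count regardless of strand, filtered genes by CPM, and deposited 2 tables of FPKM per library, scaled separately. Columns of the authors' own edgeR comparison (log2 fold change, average CPM, likelihood ratio, p-value, and FDR) were not used. The titles of the samples number 4 experiments, but the headings of the columns give no such number, so the groups were compared unpaired. The study's own design was pair-wise. Each heading starts with one of 4 codes (such as M22) that recur in every group, and no source says what these mark. Libraries with the same code deviated together from the group means in log2(FPKM + 1) (Pearson r across genes 0.45 to 0.78 in the Th17 and 0.66 to 0.77 in the iTreg table), each correlating best with its own partner, so a limma fit with the code as a replicate block was added after seeing the data.

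The test of each table was limma (version 3.58.1, R version 4.3.3, no trend) with values as log2(FPKM + 1), on genes above 1 FPKM in 4 or more of the 8 libraries, and with an FDR of 0.05. Fold changes on this scale understate those of low genes. Genes below 1 FPKM in all libraries of a group passed the filter through the other group alone, so their calls are not independent of it. The cultures are described as independent, so p-values measure the spread between 4 cultures a group. Because libraries of the same code deviated together, this spread holds a part shared between groups. Only the fit with the block takes that part out. The script was tested on simulated data. Leaving out a library kept the set of genes tested. Whole reads were recovered from the steps of the FPKM (tolerance 0.01 reads), for 99.89% of genes in the Th17 and 99.88% in the iTreg table, and gave Th0 reads that were identical in both tables for 99.3% of the genes. They were tested with limma-voom as an added alternative. Poisson intervals are exact, at 95%. Other steps used Python 3.11.15 with pandas 2.3.3 and scipy 1.17.1. The gene and list members were chosen with earlier results of these data known. Named were the 4 genes, the 3 genes most like each by Pearson r, the 8 others with the largest falls in both tables, DE genes of the lists, family members, and genes starting within 200 kb. Alternatives were a pseudocount of 0.1, no filter, limma-trend, a common median, an FDR of 0.01, group medians, and each library left out. Some genes of the lists are counted but not reported here by name. Promoter sequences come from RefSeq, in which Nrgn, Ifitm2, and Phf11b were matched by symbol, and genes from the GENCODE annotation of GRCm38.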

Additional observations from a re-analysis of the deposited data

Results flagged for a closer look

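Of 228 groups of 4 libraries, over 77 named genes, 11 held a library whose gap to the nearest of the others exceeded the 95% critical value of Dixon's test. Chance gives this in about 1 of 20 groups. Among the chosen genes the single case was Nrgn in the Th17 library M22_5, at 1.23 FPKM where the others had 0.0882 to 0.172 FPKM. Without this library the log2 fold change of Nrgn in Th17 cells was -5.13.

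The iTreg library M29_4 stood apart for Pyhin1 (5.24 FPKM, others 0.666 to 1.26), Slamf6 (11.4 FPKM, others 7.99 to 8.44), and Gbp4 (24.4 FPKM, others 1.49 to 4.58), all at the upper end. The Th0 library M29_1 stood apart for Tacc2 (14.5 FPKM, others 10.3 to 10.5), Il10 (3.71 FPKM, others 0.164 to 0.613), and, at the lower end, Gbp7 (3.40 FPKM, others 4.42 to 4.63). In Th17 cells M42_5 was low for Btla (10.2 FPKM, others 19.9 to 21.1) and Irf9 (17.2 FPKM, others 25.4 to 26.9), M29_5 was high for Il2 (5.82 FPKM, others 3.37 to 3.64), and M43_5 was high for Foxp3 (42.5 FPKM, others 0.499 to 4.50).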

How the results depend on the processing

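With the beginning of the heading as a replicate block, 3882 genes (37.8% of those tested) were DE in Th17 and 4170 (40.9%) in iTreg cells. In Th17 cells the block gave 9 of 15 tested anergy, 6 of 16 calmodulin, 19 of 25 interferon-induced, and 6 of 8 Th1 and Th2 genes. In iTreg cells it gave 12 of 15 anergy, 9 of 16 calmodulin, 14 of 23 interferon-induced, and 4 of 6 Th1 and Th2 genes. It lost no call on the 107 and 103 named, listed, or neighbouring genes that were compared, left the fold changes of the chosen genes as they were, and gave them SEs of 0.21 to 0.49 (0.30 to 0.76 without it). All 104 alternative values of the 8 log2 fold changes of the chosen genes kept their direction, and 8 moved by more than the SD between libraries, those with a pseudocount of 0.1 FPKM and those from recovered reads. In Th17 cells these were -6.74 and -7.06 for Nrgn, -5.94 and -6.00 for Ifitm2, and -3.67 and -3.69 for Phf11b, and in iTreg cells -3.86 and -3.89 for Phf11b. With each library left out, the Th17 value ranged from -6.20 to -5.21 for Nrn1, -5.14 to -4.52 for Nrgn, -5.25 to -4.78 for Ifitm2, and -3.41 to -2.998 for Phf11b. The iTreg value ranged from -4.85 to -3.86 for Nrn1, -3.14 to -2.53 for Nrgn, -2.57 to -2.003 for Ifitm2, and -3.53 to -3.12 for Phf11b. The ratio of iTreg to Th17 levels ranged from 2.23 to 3.72 for Nrn1, 8.42 to 32.5 for Nrgn, 8.78 to 17.2 for Ifitm2, and 0.749 to 1.00 for Phf11b.

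At an FDR of 0.01 the DE genes numbered 995 in Th17 cells (1983 at 0.05) and 778 in iTreg cells (1691 at 0.05), and with each library left out 1364 to 2237 and 1140 to 1521. Recovered reads gave 1968 and 1686. At an FDR of 0.01 the DE genes of the lists numbered 4 of the anergy, 3 of the calmodulin, 3 of the interferon-induced, and 0 of the Th1 and Th2 genes in iTreg cells, and 10 of the interferon-induced genes in Th17 cells. With each library left out, the Th17 counts were 7 for anergy, 2 to 3 for calmodulin, 10 to 15 for interferon-induced, and 4 to 6 for Th1 and Th2 genes, and the iTreg counts were 4 to 7, 3 to 6, 5 to 11, and 0 to 1. The deviations from the group means kept 1 of the 3 genes most like Nrgn and Ifitm2 and none for Nrn1 and Phf11b. Depth limits Nrgn and Ifitm2 in Th17 cells, where single libraries hold as few as 1 and 2 reads.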
